A study of Mus musculus with 3 samples.

Results

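TRBV29 clonotypes are T cell receptor (TCR) beta chains built on the V gene TRBV29, the gene that RefSeq lists with the older names Tcrb-V7 and Vbeta7 (Vβ7). A clonotype is a set of reads with the same nucleotide sequence of CDR3, the loop made where the V, D and J genes join. All clonotypes whose best matching V gene was TRBV29 and whose best matching J gene was a TRBJ gene were taken, whatever their reading frame or number of reads. They numbered 4138 of 167967 TCR beta clonotypes over 3 libraries, or 3902 when a clonotype found in several libraries was counted once. There were 720 of 44807 in CD4 T cells, 2439 of 81212 in CD8 T cells and 979 of 41948 in double negative (DN) T cells, which lack both coreceptors.

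The libraries came from the spleen of 1 male MRL.lpr mouse, a lupus-prone strain with a mutant Fas gene, at 16 weeks of age. The mouse had no stated treatment, and 1000000 sorted cells of each subset gave 1 library. The study asked whether DN T cells come from CD8 T cells and whether their repertoire is narrowed. Each subset thus had no replicate. A test between subsets here compares libraries, not conditions, and a test against other V genes compares clonotypes within 1 library. The tables hold TCR genes only, so the CD4, CD8 and DN labels could not be checked against marker genes. The TCR beta reads numbered 133667 in the CD4, 150874 in the CD8 and 194290 in the DN library, of which 1613, 4148 and 3962 were TRBV29 reads. Reads are PCR copies without stated molecular identifiers, so the 95% intervals given here cover counting error only, and more cells and more mRNA per cell cannot be told apart.

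A beta chain is made in the thymus by joining a V, a D and a J gene, with bases trimmed and added at each join. The V gene supplies the start of CDR3 and the J gene its end, while the middle is set by the D gene and the added bases and contacts the peptide held by MHC. The TRB locus holds a pair of D genes, and TRBD2 lies behind the TRBJ1 genes, so a usual deletional join links TRBD1 to either J cluster but TRBD2 only to TRBJ2. Vβ7 T cells are known for their deletion in mouse strains that carry the Mls-1a superantigen. Whether this mouse carries it is not given in the sources used here. In the RefSeq list of GRCm38.p6, Trbv29 lies between Trbv28 and Trbv30 on chromosome 6 and is annotated as a V segment pseudogene. The files' own gene reference is not given in the sources used here, so the list was used for names and neighbours only.

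The sequences that carry most of what follows are the common start of the TRBV29 CDR3s and the CDR3s of the largest clonotypes. The common start is the run of bases read from the first base of CDR3 that at least 75% of clonotypes carrying the run so far continued with:
TRBV29 common start: tgtgctagcagttt
The 5 largest TRBV29 clonotypes of DN T cells were all among the 10 largest of CD8 T cells. Their nucleotide CDR3s are shown 5′ to 3′, with capitals for the bases between the common start and the common end of the J gene:
DN clonotype 1 (TRBD1, TRBJ2-2): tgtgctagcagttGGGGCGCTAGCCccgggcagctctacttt
DN clonotype 2 (TRBD1, TRBJ2-5): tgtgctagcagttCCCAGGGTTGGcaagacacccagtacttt
DN clonotype 3 (TRBD2, TRBJ2-1): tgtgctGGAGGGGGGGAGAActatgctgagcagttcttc
DN clonotype 4 (TRBD2, TRBJ2-7): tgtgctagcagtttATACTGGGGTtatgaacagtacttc
DN clonotype 5 (TRBD1, TRBJ1-1): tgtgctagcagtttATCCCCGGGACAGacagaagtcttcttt
The 3 largest of CD8 T cells had 8, 17 and 3 bases between the common ends:
CD8 clonotype 1 (no D gene named, TRBJ1-2): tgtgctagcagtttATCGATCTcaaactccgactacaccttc
CD8 clonotype 2 (TRBD2, TRBJ2-5): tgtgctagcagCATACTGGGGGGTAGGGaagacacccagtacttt
CD8 clonotype 3 (no D gene named, TRBJ2-5): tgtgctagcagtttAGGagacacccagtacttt
The 3 largest of CD4 T cells were not found in CD8 T cells:
CD4 clonotype 1 (TRBD1, TRBJ1-2): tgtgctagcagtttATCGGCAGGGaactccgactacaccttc
CD4 clonotype 2 (TRBD1, TRBJ2-7): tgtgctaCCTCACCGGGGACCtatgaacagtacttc
CD4 clonotype 3 (TRBD2, TRBJ2-3): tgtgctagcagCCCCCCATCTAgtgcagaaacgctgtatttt

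TRBV29 took the largest share of TCR beta reads in CD8, an intermediate share in DN and the smallest in CD4 T cells. It held 2.75% of reads in CD8 (95% Wilson interval 2.67 to 2.83), 2.04% in DN (1.98 to 2.10) and 1.21% in CD4 T cells (1.15 to 1.27). The intervals did not overlap. Among V genes with reads, TRBV29 ranked 11 of 24 in CD8, 11 of 29 in DN and 14 of 26 in CD4 T cells. The share of clonotypes, which does not depend on clone size, gave the same order, at 3.003% in CD8 (2.89 to 3.12), 2.33% in DN (2.19 to 2.48) and 1.61% in CD4 T cells (1.49 to 1.73).

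The read share in DN T cells was 0.742 of that in CD8 (95% interval 0.710 to 0.774) and 1.69 times the CD4 value (1.60 to 1.79). CD8 T cells held 2.28 times the read share of CD4 T cells (2.15 to 2.41). In clonotypes, the ratio was 0.777 for DN over CD8 (two-sided Fisher's exact test, adjusted over 3 pairs, p = 7.24e-12), 1.45 for DN over CD4 (p = 1.77e-14) and 1.87 for CD8 over CD4 (p = 5.41e-55). These 3 orders held when clonotypes found in another library were left out, at 0.779, 1.53 and 1.97. Differences of this size were common among V genes. Of 21 V genes with at least 100 reads in each library, a ratio of read shares of at least 1.5, or its inverse, was found for 28.6% in DN over CD8, 57.1% in DN over CD4 and 61.9% in CD8 over CD4. TRBV29 passed that fold against CD4 in both CD8 and DN T cells but not between DN and CD8. From the highest ratio down, it ranked 16, 5 and 4 in these 3 comparisons.

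**Figure D1:**
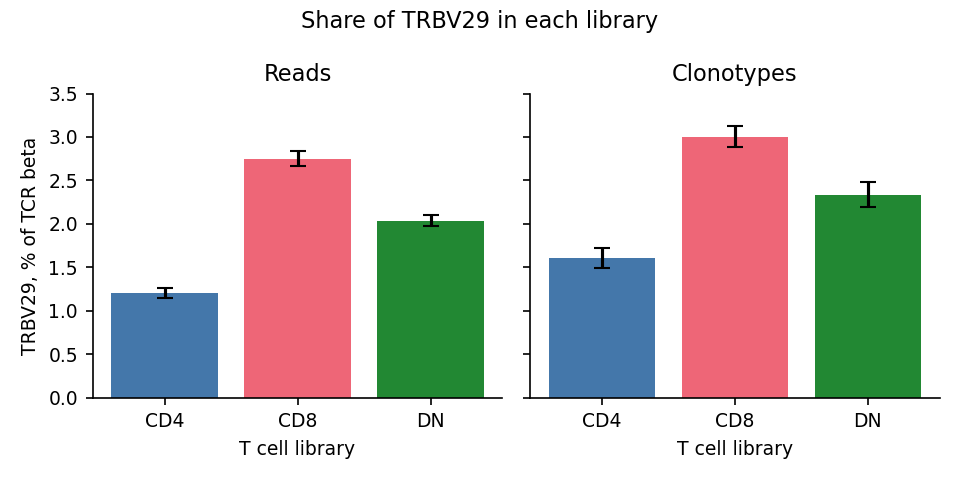
Share of TRBV29 among TCR beta reads (left) and clonotypes (right) in the CD4, CD8 and DN libraries, in percent, with 95% Wilson intervals as bars. In both panels CD8 T cells were highest (2.75% of reads, 3.003% of clonotypes), DN T cells next (2.04% and 2.33%) and CD4 T cells lowest (1.21% and 1.61%).

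The V genes whose read shares were spread over the 3 libraries most like those of TRBV29 were TRBV13-3, TRBV17 and TRBV1. Likeness was the Euclidean distance between log2 read shares centred on each gene's mean, over 3 libraries and the 13 V genes with at least 1% of reads in each. TRBV13-3, which encodes Vβ8.1, was nearest at a distance of 0.19, with 5.81% of reads in the CD4, 14.9% in the CD8 and 11.7% in the DN library. It was also highest in CD8 and lowest in CD4 T cells. TRBV17 (0.41) had 3.57%, 6.82% and 7.58%, and TRBV1 (0.43) had 6.48%, 10.8% and 11.9%, both with DN above CD8 T cells. With 3 libraries, these distances are a description.

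Nearly all TRBV29 clonotypes could encode a chain, that is, they kept the J gene in frame with no stop codon. In-frame clonotypes were 686 of 720 (95.3%) in CD4, 2385 of 2439 (97.8%) in CD8 and 947 of 979 (96.7%) in DN T cells. The clonotypes of the other V genes were in frame in 92.1%, 95.03% and 90.9%. TRBV29 was higher by 3.15 percentage points in CD4 (two-sided Fisher's exact test, adjusted over the 3 libraries, p = 0.00123), by 2.76 in CD8 (p = 1.03e-11) and by 5.83 in DN T cells (p = 4.02e-12). Among the 13 common V genes, its in-frame share ranked 3 in the CD4, 2 in the CD8 and 1 in the DN library, where the others ranged from 77.6% to 96.1%. Between libraries, the in-frame share of TRBV29 was higher in CD8 than in CD4 by 2.51 points (Fisher's exact test, adjusted over 3 pairs, p = 0.0021). This call was lost among clonotypes with at least 2 reads (1.71 points, Fisher's exact test, p = 0.0764). DN T cells differed from CD8 by -1.05 points (95% interval -2.46 to 0.10, p = 0.129) and from CD4 by 1.45 points (-0.41 to 3.49, p = 0.129 by the same exact test). The DN and CD8 difference was called, at -1.53 points (Fisher's exact test, p = 0.0469), once clonotypes found in another library were left out. The higher in-frame share in CD8 than in CD4 T cells was not particular to TRBV29. The other V genes had the same order, at 95.03% in CD8 and 92.1% in CD4 T cells.

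The TRBV29 clonotypes that could not encode a chain were small. CD4 T cells had 34, CD8 T cells 54 and DN T cells 32, of which 4, 7 and 2 were in frame but held a stop codon. The largest had 3, 2 and 5 reads, and by reads TRBV29 was in frame in 97.5%, 98.6% and 98.9%. The largest of CD4 T cells joined TRBJ2-7 and that of DN T cells joined TRBJ2-2, with lengths of 41 and 40 bases that are not whole codons:
CD4 out of frame (TRBD2, TRBJ2-7): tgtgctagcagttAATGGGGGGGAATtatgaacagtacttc
DN out of frame (TRBD2, TRBJ2-2): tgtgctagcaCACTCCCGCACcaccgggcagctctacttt
Neither was found in another library. In CD8 T cells the largest had 2 reads, joined TRBJ1-2 and ran to 180 bases.

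At the V end, CD8 T cells kept the common start of TRBV29 most often. The whole common start of 14 bases was kept by 48.7% of in-frame clonotypes in CD8 (46.7 to 50.7), 45.7% in DN (42.6 to 48.9) and 39.7% in CD4 T cells (36.1 to 43.4). The first 9 bases were kept by 94.0% or more in each library, and the first 12 by 75.9% in CD8, 71.8% in DN and 65.7% in CD4 T cells. In protein, CDR3 began with cysteine, alanine and a pair of serines in 83.5% of in-frame clonotypes in CD8, 81.2% in DN and 73.9% in CD4 T cells, and with arginine in place of the second serine in 6.88%, 7.92% and 12.1%. Residue 5, counted from the first cysteine, was leucine in 42.5%, 40.7% and 37.3%, against 10.8%, 7.19% and 10.2% in other V genes. The intervals of CD8 and CD4 T cells did not overlap for the 14 bases and both serines.

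Between the common ends, the mean number of bases was 11.9 ± 4.1 (SD over 947 clonotypes) in DN, 11.1 ± 4.3 (2385) in CD8 and 10.6 ± 4.0 (686) in CD4 T cells. Clonotypes with no base there were rare, with 3, 6 and 1.

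The J genes joined to TRBV29 differed most between CD4 T cells and the other libraries. Genes of the TRBJ2 cluster, which lies behind TRBD2, were joined in 1589 of 2385 in-frame clonotypes of CD8 (66.6%), 606 of 947 of DN (64.0%) and 360 of 686 of CD4 T cells (52.5%). CD4 was lower than CD8 T cells by 14.1 percentage points (two-sided Fisher's exact test, adjusted over 3 pairs, p = 7.04e-11) and lower than DN T cells by 11.5 points (p = 5.10e-06). DN minus CD8 T cells was -2.63 points (95% interval -6.26 to 0.92, p = 0.156), a difference that reached -7.03 points (exact test, p = 0.0213) among clonotypes with at least 2 reads. In other V genes the TRBJ2 share was also lowest in CD4 T cells, at 63.6% against 69.4% in CD8 and 70.9% in DN T cells.

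Against the other V genes of the same library, TRBV29 had a lower TRBJ2 share in each. The difference was -11.2 points in CD4 (52.5% against 63.6%, Fisher's exact test, adjusted over the 3 libraries, p = 1.08e-08), -2.77 in CD8 (66.6% against 69.4%, p = 0.00418) and -6.87 in DN T cells (64.0% against 70.9%, p = 1.07e-05). TRBV29 had the lowest TRBJ2 share of the 13 common V genes in CD4, where the next lowest had 56.6%, and ranked 10 in CD8 and 11 in DN T cells. Among clonotypes with at least 2 reads, the difference in CD8 turned to 1.58 points (p = 0.378) and that in CD4 was -6.81 (p = 0.0564, exact test).

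Single J genes of at least 10% in a library were TRBJ1-1, TRBJ2-1, TRBJ2-5 and TRBJ2-7. TRBJ2-7 led in each, with 16.6% in the CD4, 19.3% in the CD8 and 22.5% in the DN library, and stood in other V genes at 17.2%, 21.1% and 23.5%. TRBJ1-1 held 16.0% in CD4 (95% interval 13.5 to 19.0), above the 9.88% of other V genes, but 8.85% in CD8 and 10.1% in DN T cells, near the 8.62% and 8.76% of other V genes. TRBJ2-5 held 17.7% in CD8 (16.2 to 19.2) against 13.2% in other V genes, 12.8% in DN and 9.33% in CD4 T cells. TRBJ2-1 held 9.04%, 12.2% and 13.2% in CD4, CD8 and DN T cells, each below the 12.6%, 14.1% and 16.2% of other V genes. No test was made for single J genes.

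By reads, single large clonotypes weighed on these shares. TRBJ1-2 held 18.9% of in-frame TRBV29 reads in CD4 T cells, with 297 reads of which 139 came from CD4 clonotype 1. TRBJ2-5 held 20.6% in CD8 T cells. TRBJ2-2 held 9.44% of reads against 4.44% of clonotypes in DN T cells, where DN clonotype 1 had 242 of its 370 reads.

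**Figure D2:**
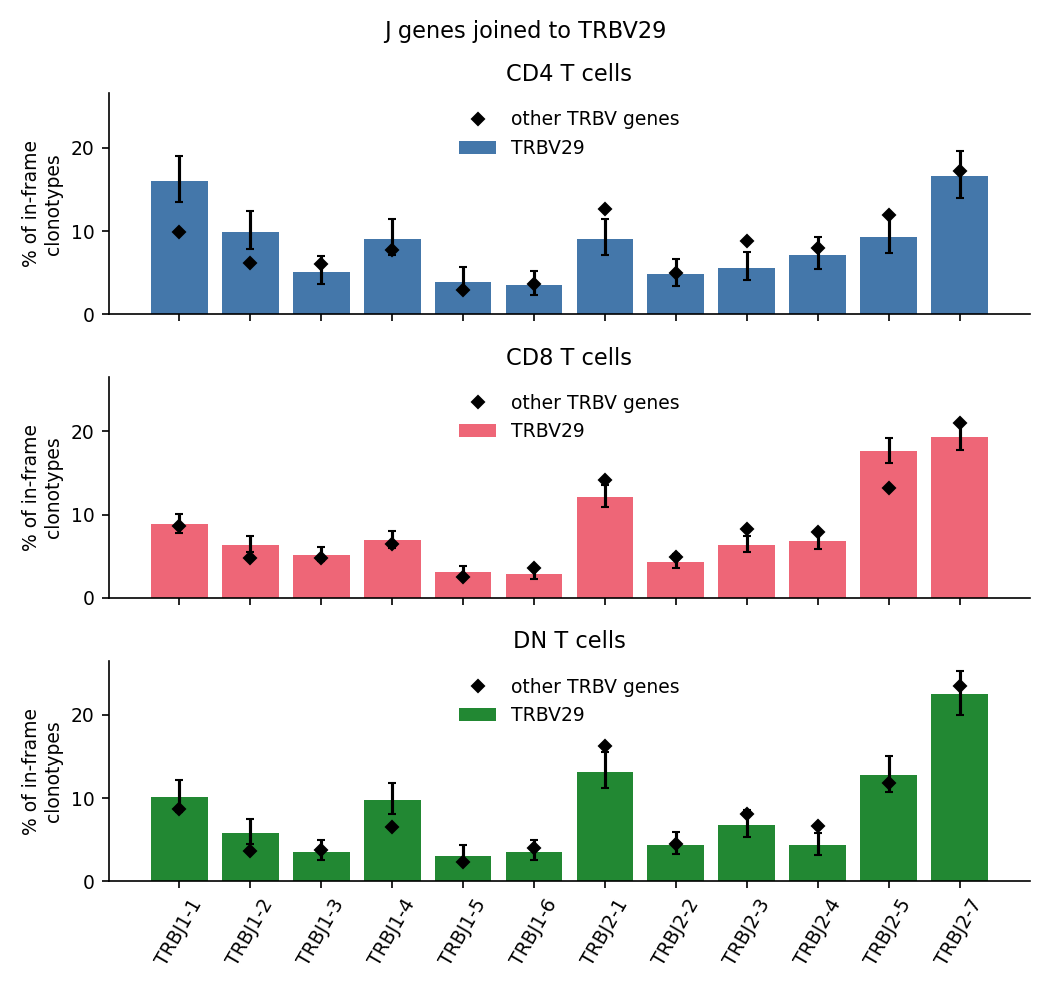
Percent of in-frame TRBV29 clonotypes joined to each J gene (coloured bars, with 95% Wilson intervals) in the CD4 (top), CD8 (middle) and DN (bottom) libraries, with the percent among other V genes as black diamonds. TRBJ1-1 in CD4 T cells (16.0% against 9.88%) and TRBJ2-5 in CD8 T cells (17.7% against 13.2%) stood above the other V genes. So did TRBJ1-2 in each library (9.91% against 6.11% in CD4, 6.37% against 4.75% in CD8, 5.81% against 3.66% in DN T cells) and TRBJ1-4 in DN T cells (9.82% against 6.57%).

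TRBV29 was joined to TRBD2 less often than the other V genes pooled in all 3 libraries. TRBD1 was named in 54.4% of in-frame TRBV29 clonotypes in the CD4, 53.9% in the CD8 and 54.5% in the DN library, TRBD2 in 16.9%, 17.7% and 20.7%, and no D gene in 28.7%, 28.5% and 24.8%. In other V genes TRBD2 was named in 29%, 32.5% and 40.2%. Among clonotypes with a named D gene, TRBD2 made up 116 of 489 (23.7%) in CD4, 421 of 1706 (24.7%) in CD8 and 196 of 712 (27.5%) in DN T cells, against 39.4%, 44.0% and 52.4% in other V genes. The differences were -15.7 points (two-sided Fisher's exact test, adjusted over the 3 libraries, p = 3.99e-13), -19.3 points (p = 1.41e-59) and -24.9 points (p = 4.18e-40). Between libraries, no pair passed the test. DN minus CD8 T cells was 2.85 points (95% interval -0.94 to 6.78, p = 0.228), DN minus CD4 3.81 points (-1.26 to 8.72, p = 0.228) and CD8 minus CD4 0.956 points (-3.48 to 5.09, p = 0.720, all by Fisher's exact test).

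The low TRBD2 share was also found within TRBJ2 joins, which both D genes can reach. There, TRBD2 was named in 86 of 263 TRBV29 clonotypes with a D gene (32.7%) in CD4, 367 of 1179 (31.1%) in CD8 and 37.0% in DN T cells, against 54.9%, 57.3% and 66.8% in other V genes. TRBV29 was the lowest of the 13 common V genes in each library, and the next lowest had 34.0%, 42.6% and 49.4%. In CD4 T cells the next lowest, TRBV26, lay within the interval of TRBV29 (27.3 to 38.6). These ranks are a description, made after the values were seen.

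A D gene is named from few bases and can be wrong. TRBD2 was named in 30 of 226 TRBJ1 joins with a D gene in CD4 (13.3%), 54 of 527 in CD8 (10.2%) and 25 of 250 in DN T cells, although the gene order does not allow this join by deletion. The other V genes had 8.05%, 7.74% and 9.55%. A search of the CDR3 letters themselves, on the coding strand only, used ACAGG, part of the TRBD1 sequence, and ACTGG, part of the TRBD2 sequence. Among TRBJ2 joins, ACAGG was found in 23.1% of TRBV29 CDR3s in the CD4, 26.2% in the CD8 and 23.1% in the DN library, against 16.2%, 16.3% and 12.4% in other V genes. ACTGG was found in 12.8%, 13.1% and 15.5%, against 26.7%, 29.7% and 38.1%. The letters thus gave the same direction as the named D genes. A match can also arise from added bases.

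**Figure D3:**
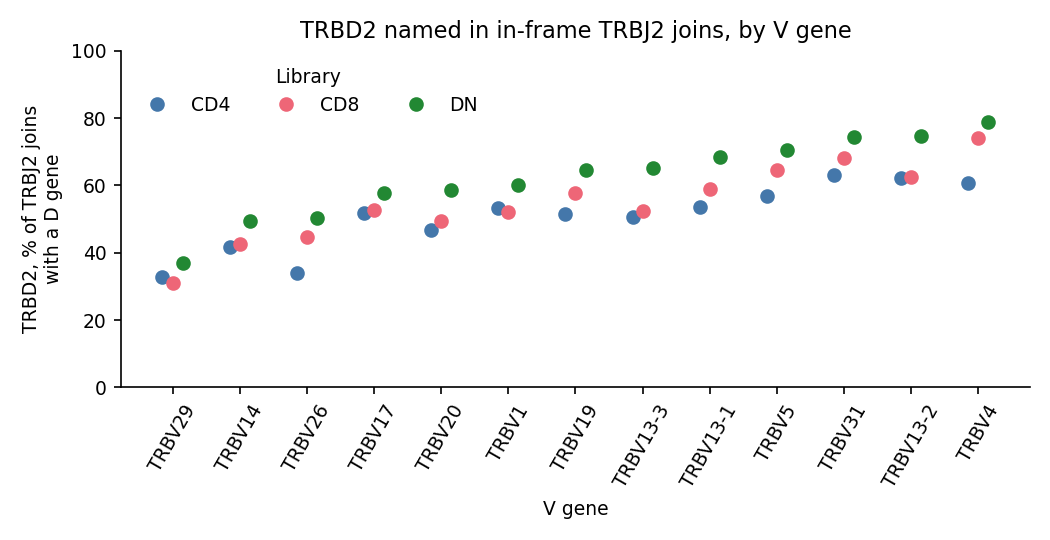
TRBD2 as percent of in-frame TRBJ2 joins with a named D gene, for the 13 V genes with at least 1% of reads in each library, ordered by the DN value, with 1 point for each of the CD4, CD8 and DN libraries. TRBV29 was lowest in each, at 32.7%, 31.1% and 37.0%.

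TRBV29 CDR3s were shorter on average than those of the other V genes pooled in each library, and shortest in CD4 T cells. The mean length, counted from the first cysteine to the last phenylalanine, was 13.3 ± 1.6 residues (SD over 686 in-frame clonotypes) in the CD4, 13.6 ± 1.6 (2385) in the CD8 and 13.8 ± 1.5 (947) in the DN library, against 13.9, 13.9 and 14.2 in other V genes. TRBV29 minus the others was -0.66 residues in CD4 (95% interval -0.78 to -0.54), -0.30 in CD8 (-0.37 to -0.24) and -0.40 in DN T cells (-0.50 to -0.30). From the longest down, TRBV29 ranked 12, 11 and 12 of the 13 common V genes in CD4, CD8 and DN, and TRBV20 was shorter in each, at 13.2, 12.9 and 13.1 residues. The DN mean exceeded that of CD8 T cells by 0.20 residues (0.09 to 0.32) and that of CD4 T cells by 0.56 (0.41 to 0.71), and the CD8 mean exceeded that of CD4 T cells by 0.36 (0.22 to 0.49). In other V genes, CD8 minus CD4 T cells was -0.0016 residues (-0.020 to 0.016) and DN minus CD8 0.30 (0.28 to 0.32).

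The difference lay at both tails and at lengths between them. CDR3s with at most 11 residues made up 12.2% in the CD4, 8.51% in the CD8 and 7.07% in the DN library, against 4.98%, 5.95% and 4.34% in other V genes. CDR3s of 17 residues or more made up 1.17%, 1.97% and 2.43%, against 2.87%, 3.197% and 4.84%. Between these tails, CDR3s of 16 residues made up 4.37%, 7.04% and 7.18%, against 9.28%, 10.1% and 13.4%. In CD4 T cells, 12 residues were found in 18.95% against 10.5%, and 15 residues in 15.7% against 23.2%. The commonest length was 14 residues in all 3 libraries. Mean length hardly differed between J clusters, at 13.26 with TRBJ1 and 13.27 with TRBJ2 in CD4, 13.71 and 13.58 in CD8, and 13.88 and 13.80 in DN T cells.

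**Figure D4:**
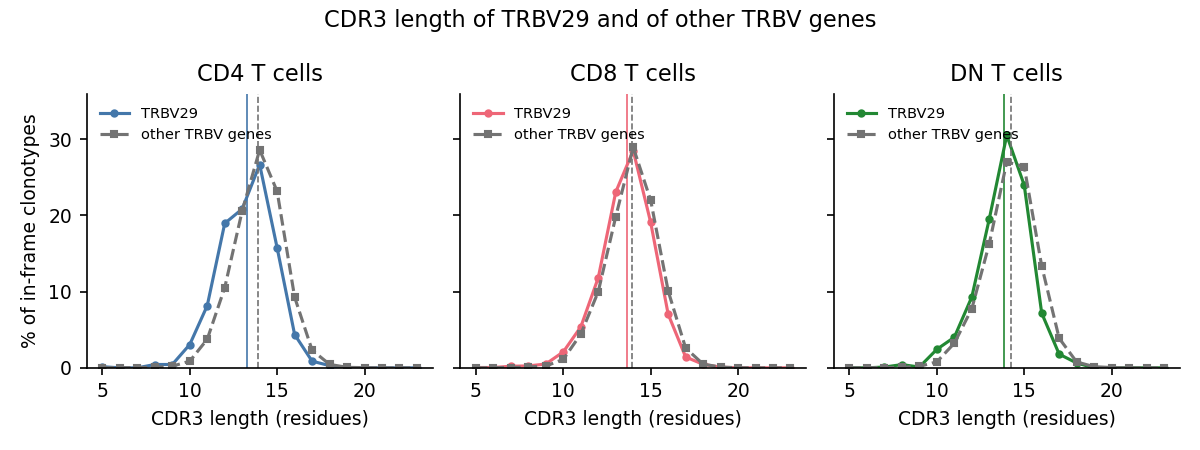
Percent of in-frame clonotypes by CDR3 length in residues for TRBV29 (coloured, circles) and other V genes (grey, squares, dashed) in the CD4 (left), CD8 (middle) and DN (right) libraries, with thin vertical lines at the means. Lengths outside the axis, all of other V genes, are not drawn. The TRBV29 curve lies left of the grey one, most in CD4 T cells (means of 13.3 against 13.9).

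Residues 6 and 7 lie near the middle of CDR3, where hydrophobic residues were counted in CDR3s of 11 to 18 residues. Residue 6 was hydrophobic in 10.6% of TRBV29 clonotypes in CD4 (95% interval 8.51 to 13.2), 15.9% in CD8 (14.4 to 17.4) and 20.7% in DN T cells. Residue 7 was hydrophobic in 8.81% (6.88 to 11.2), 11.8% (10.6 to 13.2) and 15.8%. Other V genes had the same order, with 11.7%, 13.7% and 16.8% at residue 6 and 14.5%, 17.4% and 23.0% at residue 7. TRBV29 was below the others at residue 7 in each library and above them at residue 6 in CD8 and DN T cells. These values were not tested.

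Different nucleotide CDR3s rarely encoded the same TRBV29 protein loop. Among in-frame TRBV29 amino acid CDR3s, 2.69% came from several nucleotide sequences in the CD4, 2.94% in the CD8 and 2.50% in the DN library. Other V genes gave 5.32%, 6.94% and 5.16%, a share that grows with the number of clonotypes sampled.

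The mean size of TRBV29 clones was highest in the DN library and, in each library, below that of all TCR beta clones. TRBV29 clonotypes had 4.05 reads on average in DN, 2.24 in CD4 and 1.70 in CD8 T cells, against 4.63, 2.98 and 1.86 for all TCR beta clonotypes. Among the 13 common V genes this mean ranked 10 in DN, 9 in CD8 and 13, the lowest, in CD4 T cells, where the next lowest was 2.48. Clonotypes with a single read made up 58.3% in DN (55.2 to 61.4), 67.4% in CD4 (63.9 to 70.7) and 70.6% in CD8 T cells (68.8 to 72.4), against 56.4%, 62.0% and 68.9% in other V genes. Those with at least 10 reads numbered 57 of 979 in DN, 20 of 720 in CD4 and 22 of 2439 in CD8 T cells, or 5.82%, 2.78% and 0.902%, against 6.91%, 4.11% and 1.16% in other V genes. Counted from the largest down, 39 clonotypes (3.98%) reached 50% of the TRBV29 reads in DN, 86 (11.9%) in CD4 and 541 (22.2%) in CD8 T cells. At equal depth, TRBV29 clonotypes had 3.48 reads on average in DN, 2.24 in CD4 and 1.64 in CD8 T cells.

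The 10 largest TRBV29 clonotypes held 29.1% of TRBV29 reads in DN (27.7 to 30.5), 23.6% in CD4 (21.6 to 25.7) and 10.9% in CD8 T cells (10.03 to 11.9). A list of 10 is a smaller part of the 2439 TRBV29 clonotypes of CD8 than of the 979 of DN and 720 of CD4 T cells. The largest had 242 reads in DN, 139 in CD4 and 114 in CD8 T cells, or 6.11%, 8.62% and 2.75% of TRBV29 reads. None of them led its library, where they ranked 57, 52 and 29 among all TCR beta clonotypes. Among the 100 largest clonotypes of a library, TRBV29 had 1 in DN, 1 in CD4 and 3 in CD8 T cells, beside the 2.33%, 1.61% and 3.003% of all clonotypes that it made up.

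The large TRBV29 clones of DN T cells were nearly all found in CD8 T cells too. DN clonotype 1 had 242 reads in DN, 23 in CD8 and 4 in CD4 T cells. DN clonotype 2 had 162, 31 and 7 reads in the same order. DN clonotype 3 had 135, 31 and 3 reads. Clonotypes 4 and 5 of DN T cells followed with 115 and 112 reads, 23 and 29 in CD8, and 4 and 2 in CD4 T cells. All 5 thus had their most reads in DN and their fewest in CD4 T cells.

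The 3 largest TRBV29 clones of CD8 and of CD4 T cells had few or no reads elsewhere. CD8 clonotype 1 had 114 reads in CD8, 3 in DN and 2 in CD4 T cells. CD8 clonotypes 2 and 3, with 94 and 61 reads, were not found in DN T cells, where a count of 0 allows up to 0.00154% of reads, and had 2 and 1 reads in CD4 T cells. CD4 clonotype 1 had 139 reads in CD4 and 2 in DN T cells and was not found in CD8, where a count of 0 allows up to 0.00199%. CD4 clonotypes 2 and 3, with 53 and 40 reads, were found in neither.

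Of the 20 largest TRBV29 clonotypes of DN T cells, 19 were present in the CD8 library, with a median share there of 17.4% of the one in DN T cells, and 18 in the CD4 library, with a median of 4.47%. The 20 largest of CD4 T cells had 3 members in the CD8 and 4 in the DN library, with a median share of 0% in both. The 20 largest of CD8 T cells had 12 in the DN and 13 in the CD4 library. Their median share was 68.5% of the one in CD8 T cells in the DN library (range 0% to 817%) and 5.09% in the CD4 library. Between the lists of the 10 largest, CD8 and DN T cells shared 5 clonotypes, and CD4 T cells shared 0 with either. Such lists were not made for other V genes. Their clonotypes of at least 10 reads are given here, with TRBV29 in brackets. Those of DN were found in CD8 in 83.2% (87.7%) and in CD4 in 48.2% (54.4%). Those of CD8 were found in DN in 62.3% (59.1%) and in CD4 in 51.8% (63.6%). Those of CD4 were found in DN in 20.4% (4 of 20) and in CD8 in 28.6% (3 of 20). Sharing of large DN and CD8 clones was thus not particular to TRBV29. These values were not tested. Whether shared clonotypes reflect cells of 1 clone in both subsets, the purity of the sort or reads that pass between libraries cannot be told apart here. No TRBV29 clonotype of a library had at least 100 times its reads in another.

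Over all sizes, 148 of 979 TRBV29 clonotypes of DN T cells were found in CD8 (15.1%, 13.0 to 17.5) and 70 in CD4 T cells (7.15%, 5.70 to 8.94). The CD8 library held more TRBV29 clonotypes to be found, 2439 against 720. By reads, the shared clonotypes made up 61.2% of TRBV29 in DN T cells for CD8 and 46.5% for CD4, against 66.7% and 49.4% in other V genes. DN clonotypes of other V genes were found in CD8 in 18.6% and in CD4 T cells in 8.99%. TRBV29 minus the others was -3.49 points for CD8 (two-sided Fisher's exact test, adjusted over both, p = 0.0105) and -1.84 points for CD4 T cells (p = 0.0472). Neither call held among clonotypes with at least 2 reads (exact test, p = 0.612 for each).

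Sharing was more frequent among larger clones. DN clonotypes of a single TRBV29 read were found in CD8 T cells in 5.08%, those of 2 to 9 reads in 19.7% and those of at least 10 reads in 87.7% (50 of 57, 76.8 to 93.9). Other V genes had 8.06%, 22.7% and 83.2%, so TRBV29 was below them among small and above them among large clonotypes, in values that were not tested. In CD4 T cells the shares were 2.63%, 6.84% and 54.4%, against 4.10%, 9.15% and 48.2% in other V genes. From the other side, 6.07% of TRBV29 clonotypes of CD8 T cells and 9.72% of those of CD4 T cells were found in DN T cells. Other V genes had 9.68% and 8.36%. These values were not tested either.

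Only 41 TRBV29 clonotypes were found in all 3 libraries, all of them in frame, and they held 43.6% of TRBV29 reads in DN, 10.1% in CD8 and 5.52% in CD4 T cells. A further 107 were found in DN and CD8 alone, 29 in DN and CD4 alone and 18 in CD8 and CD4 alone. The clonotypes of 1 library numbered 802 in DN, 2273 in CD8 and 632 in CD4 T cells and held 35.8%, 79.9% and 74.6% of their TRBV29 reads. They made up 81.9%, 93.2% and 87.8% of TRBV29 clonotypes, against 77.03%, 87.9% and 87.2% among other V genes. The clonotypes of all 3 libraries were 4.19% of TRBV29 clonotypes in DN, 1.68% in CD8 and 5.69% in CD4 T cells, against 4.63%, 2.41% and 4.30% among other V genes. These shares were not tested, and the read shares are given for TRBV29 only. Without the shared clonotypes, reads per TRBV29 clonotype were 1.77 in DN, 1.46 in CD8 and 1.91 in CD4 T cells. DN T cells then no longer had the highest mean. This step removes by size, as 50 of 57 DN clonotypes of at least 10 reads were found in CD8 T cells. A fall of the DN mean was thus built in. The mean CDR3 lengths without the shared clonotypes were 13.8, 13.6 and 13.2 residues.

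**Figure D5:**
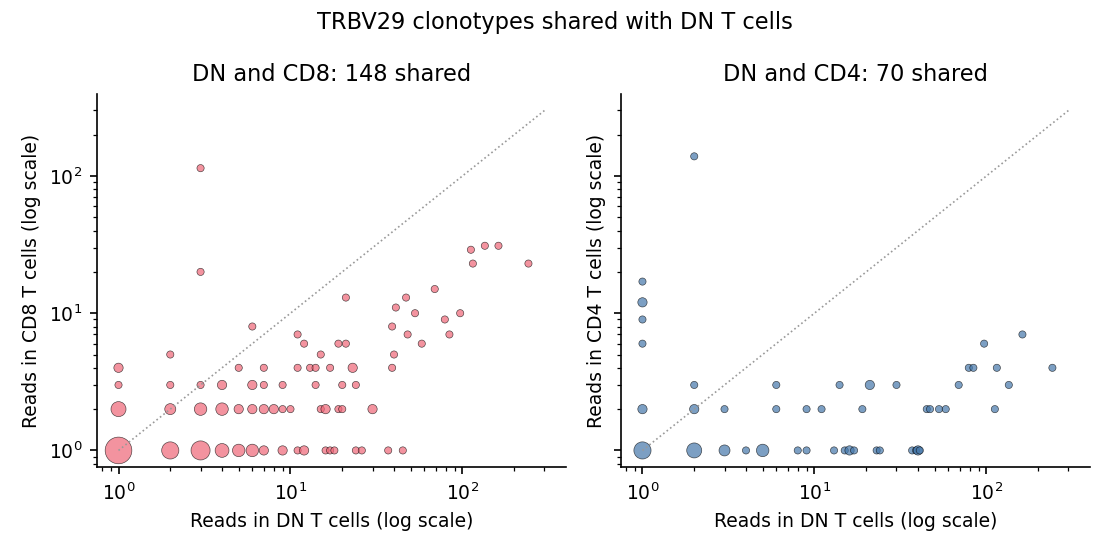
Reads of each TRBV29 clonotype shared by DN and CD8 (left, 148 clonotypes) and by DN and CD4 T cells (right, 70 clonotypes), on log scales, with larger points where several clonotypes have the same pair of values and a dotted line at equal reads. Large DN clonotypes lie below the line in both panels, down to 23 CD8 reads and 4 CD4 reads for the clonotype of 242 DN reads.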

How the data were processed

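TCR mRNA of 1 CD4, 1 CD8 and 1 DN library was prepared with a Takara SMARTer Mouse TCRα/β kit. Reads were aligned and grouped into clonotypes by the authors in MiXCR, whose version, settings and gene reference are not given in the sources used here. As deposited, each clonotype has a count of its reads, not normalized, and the fraction of the library's reads, which equalled the count over the table's total when checked. Shares were computed from the counts over clonotypes with TRB genes. The other clonotypes (84 of CD4, 101 of CD8 and 78 of DN T cells) were not used.

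At these depths a count of 0 allows a share of up to 0.00224%, 0.00199% and 0.00154% (3 reads) in the CD4, CD8 and DN libraries. In-frame means no frameshift and no stop codon. Shares have 95% Wilson intervals, and the remaining differences were compared by two-sided Fisher's exact tests with Benjamini-Hochberg adjustment over the 3 pairs or the 3 libraries. Reads of a clone are not independent, so no p-value is given for read shares. A test on reads served only to sort their alternative values. Clonotypes are separate joins but come from 1 mouse. Clonotypes were shared if nucleotide CDR3, V and J gene were the same.

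TRBV29 clonotypes were named if among the 3 largest of a library, in the 10 largest of more than 1, or largest out of frame. J genes were named if at 10% of a library, and a few others where their shares stood out. The alternatives were a minimum of 2 reads, in-frame clonotypes only, stop codons counted as in frame, merging of near-identical sequences (1 mismatch, 10 times more reads) or of equal amino acid CDR3s, equal depth (133667 reads), removal of the largest clonotypes and removal of clonotypes with 100 times more reads elsewhere. Members, lists and tests were chosen with earlier results of these data known. The comparison of odds ratios, the removal of shared clonotypes, the ranks among V genes, and the motif, residue and size-class values were added after seeing the data. The measures were tested on simulated data. The tools were pandas 2.3.3, SciPy 1.17.1, NumPy 2.4.6 and matplotlib 3.10.9 under Python 3.11.15.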

Additional observations from a re-analysis of the deposited data

Results flagged for a closer look

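The gap in TRBJ2 share between TRBV29 and the other V genes differed between the CD8 and CD4 libraries. The odds of a TRBJ2 join in TRBV29 against other V genes were 0.880 in CD8 and 0.631 in CD4 T cells, and their ratio was 1.39 (95% interval 1.17 to 1.66). Of 9 such ratios, for in-frame, TRBJ2 and TRBD2 shares between pairs of libraries, it alone passed a test of the difference itself (Wald test on the log odds ratios, Benjamini-Hochberg adjustment), and 3 more had intervals without 1 before adjustment. Under 4 alternatives the ratio was 1.39 to 1.47 and its unadjusted test still passed. There was 1 library on each side, and the cause was not tested.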

How the results depend on the processing

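Of 174 alternative values, 158 kept their direction and side of the threshold, or moved by less than the spread. Among them were all ratios of TRBV29 read and clonotype shares. Not all of the 158 could change. Merging near-identical sequences leaves read shares as they are, and 0 TRBV29 clonotypes had 100 times more reads elsewhere. For read ratios the threshold was that of a Fisher's exact test on reads, which are not independent. Only their direction and size can be read. The read ratios ranged over 0.592 to 0.797 (DN over CD8), 1.57 to 1.87 (DN over CD4) and 2.24 to 2.65 (CD8 over CD4). With at least 2 reads, the in-frame difference between CD8 and CD4 T cells was 1.71 points, the TRBJ2 difference between TRBV29 and other V genes was -6.81 points in CD4 and 1.58 in CD8 T cells, the TRBJ2 difference between DN and CD8 T cells was -7.03 points, the mean CDR3 length in DN T cells was 13.9 residues, and reads per clonotype were 4.80, 3.39 and 8.31 in CD4, CD8 and DN T cells. The DN clonotypes found in CD8 and CD4 T cells then differed from other V genes by -1.18 and -1.03 points. The latter was -1.78 with near-identical sequences merged, -1.92 at equal depth and -1.72 without clonotypes of 100 times more reads elsewhere, none of which passed the test. With amino acid CDR3s merged, these 2 differences were larger, at -7.10 and -4.70 points. Without shared clonotypes, the in-frame difference between DN and CD8 T cells was -1.53 points and reads per clonotype were 1.46 in CD8 and 1.77 in DN T cells. Fewer clonotypes were tested in the settings that left some out, and the cause of each change was not tested. No paired analysis was possible because each subset had 1 library. Most TRBV29 clonotypes of each library rest on a single read.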
